A study of Rattus norvegicus with 16 samples.

Results

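The natriuretic peptide system was followed here through 7 genes, all 7 of which were measured among the 17245 genes of the array table. They are the peptide genes Nppa, Nppb and Nppc, the receptor genes Npr1, Npr2 and Npr3, and Corin, which encodes a protease that activates the Nppa product. They form a family taken by name, picked when earlier results of these data were already known. Each has 1 probe set, and none of these is shared with another symbol. RNA came from the wall of the right ventricle of male Wistar rats, which weighed 160 to 180 g. The rats had been sham operated or had received a band around the pulmonary artery, which burdens the right ventricle with pressure, but which operation each sample had is not given. The 7 samples named CON are the controls of the design text, and the remaining 5 RVF+ and 4 RVF samples carry names that the labels do not spell out. The series title names failure of the right ventricle when pressure stays raised, and the comparisons ask how the 3 groups differ. The labels leave unsaid whether each sample was a different rat, so the p-values given here reflect only how these samples vary, which may be technical.

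Natriuretic peptides are hormones made as precursors that are cut to the active form. Atrial natriuretic peptide (Nppa) and brain natriuretic peptide (Nppb) come from heart muscle cells, are released when the wall is stretched, and lower blood volume and pressure. C-type natriuretic peptide (Nppc) comes mainly from endothelium. Npr1 and Npr2 are receptors with guanylyl cyclase activity that make cyclic GMP, Npr1 for the atrial and brain peptides and Npr2 for the C-type peptide. Npr3 lacks the cyclase and removes peptides from the circulation. In the adult rodent heart Nppa is made mostly in the atria, and its return in the ventricle is a classic mark of pressure load.

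Nppa and Nppb lie next to each other in the rat genome. The stretch before each gene is shown because these genes moved together in the arrays. The sequences are from RefSeq, assembly GRCr8, plus strand, at chr5:163711934-163712183 for Nppa and chr5:163699758-163699954 for Nppb, upstream of the outermost annotated start of each gene. Capitals mark matches of GATAA, the core of GATA factor sites, of CATTCC, the core of TEAD factor sites, and of AAGTG, a core of Nkx2-5 sites, each searched on both strands.
Nppa: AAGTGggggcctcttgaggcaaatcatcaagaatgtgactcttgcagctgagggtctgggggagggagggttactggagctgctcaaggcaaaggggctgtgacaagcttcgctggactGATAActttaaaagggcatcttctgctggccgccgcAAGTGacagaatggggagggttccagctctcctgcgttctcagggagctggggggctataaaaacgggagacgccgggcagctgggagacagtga
Nppb: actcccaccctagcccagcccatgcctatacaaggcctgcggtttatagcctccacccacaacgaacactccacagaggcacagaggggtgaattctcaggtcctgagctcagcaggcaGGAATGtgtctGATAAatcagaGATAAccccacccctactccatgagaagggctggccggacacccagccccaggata

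Counted back from the transcript start in the promoter table, GATAA began 131 bases before the start in Nppa, and 120, 109 and 57 bases before it in Nppb. The Nppb stretch shown has 197 bases and ends 54 bases before that transcript start. Positions in Nppb are therefore not counted from the end of the stretch shown, and the last GATAA runs past that end. At least 1 GATAA was present in 23.5% of 33465 rat promoters of 250 bases, and at least 3 in 0.762%. CATTCC matched in Nppb on the opposite strand, 131 to 126 bases before the start, and 12.1% of promoters hold it at least once. AAGTG matched in Nppa at 250 and 95 bases before the start, and at least 2 matches occurred in 10.5% of promoters. TATAAA, searched on the gene strand, began 39 bases before the start in Nppa and 48 bases before it in Nppc, and 8.06% of promoters hold it. The CArG box, the serum response factor site, was searched only as CC, then 6 letters A or T, then GG. No such exact match lay in the window of any of the 6 members in the promoter table, against 1.5% of all promoters. Near matches, such as ctttaaaagg after GATAA in Nppa, were not counted, so the absence of a site is not shown. Npr2 was not in that table. In Npr1, Npr3 and Corin none of the letters searched was found. These matches are a description of the letters and do not show that a factor binds there.

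RVF+ and RVF ventricles both had higher Nppa, Nppb and Npr3 and lower Corin than CON, and Npr2 was lower in RVF+. Of the 7 members, 3 rose and 2 fell in RVF+ against CON, where 27.7% of all genes passed, 14.1% higher and 13.6% lower. In RVF against CON 3 rose and 1 fell, where 17.1% of all genes passed, 8.86% higher and 8.29% lower. A gene is said to rise or fall where its limma p-value, adjusted by the Benjamini-Hochberg method over all 17245 genes, was under 0.05. The median difference of the members was 0.25 on the log2 scale in RVF+ and 0.06 in RVF, beside -0.01 and -0.01 over all genes. These member medians are the values of Nppc in RVF+ and of Npr1 in RVF, neither of which passed. They do not show a shift of the family, whose members moved in both directions. With each array centred on its median, the share of calls that were higher went from 50.8% to 32.9% in RVF+ and from 51.7% to 34.0% in RVF, and the median over all genes became -0.11 and -0.09. Both comparisons use the same 7 CON arrays, so their errors are shared.

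**Figure D1:**
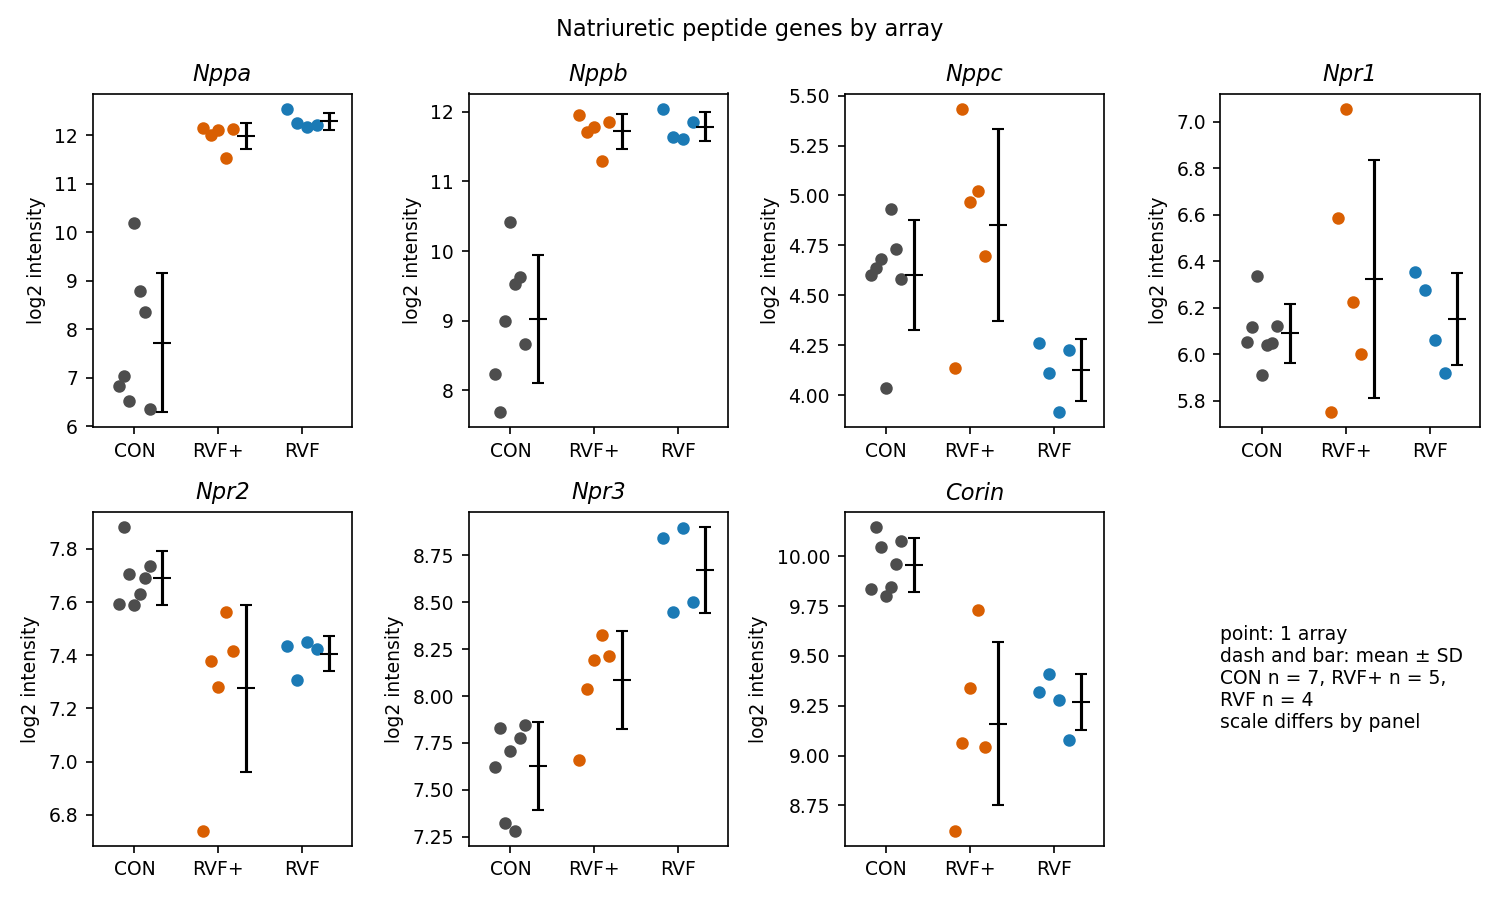
Level of each natriuretic peptide gene as log2 intensity (vertical axis, with its own scale in each panel) in CON, RVF+ and RVF; each point is 1 array, and the dash and bar give the group mean ± SD. All RVF+ and RVF points lie above all CON points for Nppa and Nppb, and all lie below them for Npr2 and Corin.

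Nppa had the largest positive difference of all genes in both comparisons with CON. Its log2 level in CON ran from 6.35 to 10.20 with a median of 7.03. In RVF+ it was 12.16, 12.01, 12.11, 11.53 and 12.13 in arrays 8 to 12, and in RVF 12.55, 12.25, 12.17 and 12.21 in arrays 13 to 16. Every RVF+ and RVF array was thus above every CON array, and the CON arrays were spread far more widely than the others. The CON mean was 7.73 ± 1.43 (SD, n = 7), while RVF+ averaged 11.99 ± 0.26 (SD, n = 5) and the 4 RVF arrays 12.30 ± 0.17 (SD). The rise was 4.26 ± 0.50 (log2 difference ± SE, here and below) in RVF+, a 19.1-fold difference (adjusted p = 1.14e-05), and 4.57 ± 0.54 or 23.7-fold in RVF (adjusted p = 1.73e-05). In exact two-sided permutation tests the p-values were 0.00126 over 792 splits and 0.00303 over 330 splits, each the smallest its design allows. Levels in RVF+ and RVF were close to the top of the scale, being 0.60 to 1.69 below the highest log2 value of the same array, against 3.07 to 6.89 below it in CON.

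Nppb followed the same order with a smaller step. Its log2 level in CON ran from 7.69 to 10.42 with a median of 8.99. In RVF+ it was 11.96, 11.70, 11.78, 11.29 and 11.85, and in RVF 12.04, 11.63, 11.60 and 11.85, in the same order of arrays. All of these lay above all CON arrays, with array 11 the lowest and array 13 the highest of the 9, as for Nppa. Nppb was 6.48-fold higher in RVF+ (2.70 ± 0.33, adjusted p = 1.73e-05) and 6.79-fold in RVF (2.76 ± 0.36, adjusted p = 4.17e-05). Of all genes, 6.96% were higher without overlap in RVF+ and 9.83% in RVF, and 14.6% and 18.8% did not overlap in either direction.

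The CON arrays with a high Nppa level also tended to have a high Nppb level. CON 4 was the highest CON array for both genes, at 10.20 for Nppa and 10.42 for Nppb, and CON 5 and CON 6 came next for both. Across the 7 CON arrays Pearson's r between these genes was 0.83 (exact permutation p = 0.0204, and 0.143 after Benjamini-Hochberg adjustment over 7 relations examined). Spearman's rho was 0.64 (exact permutation p = 0.139, adjusted 0.583), and without CON 4 and CON 5, the arrays farthest from the median of Nppa, r was 0.52. The relation therefore did not hold after adjustment and rests in part on those 2 arrays. CON 4 also had the lowest level in CON of Nppc, Npr1, Npr2 and Corin, at 4.04, 5.91, 7.59 and 9.80.

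**Figure D2:**
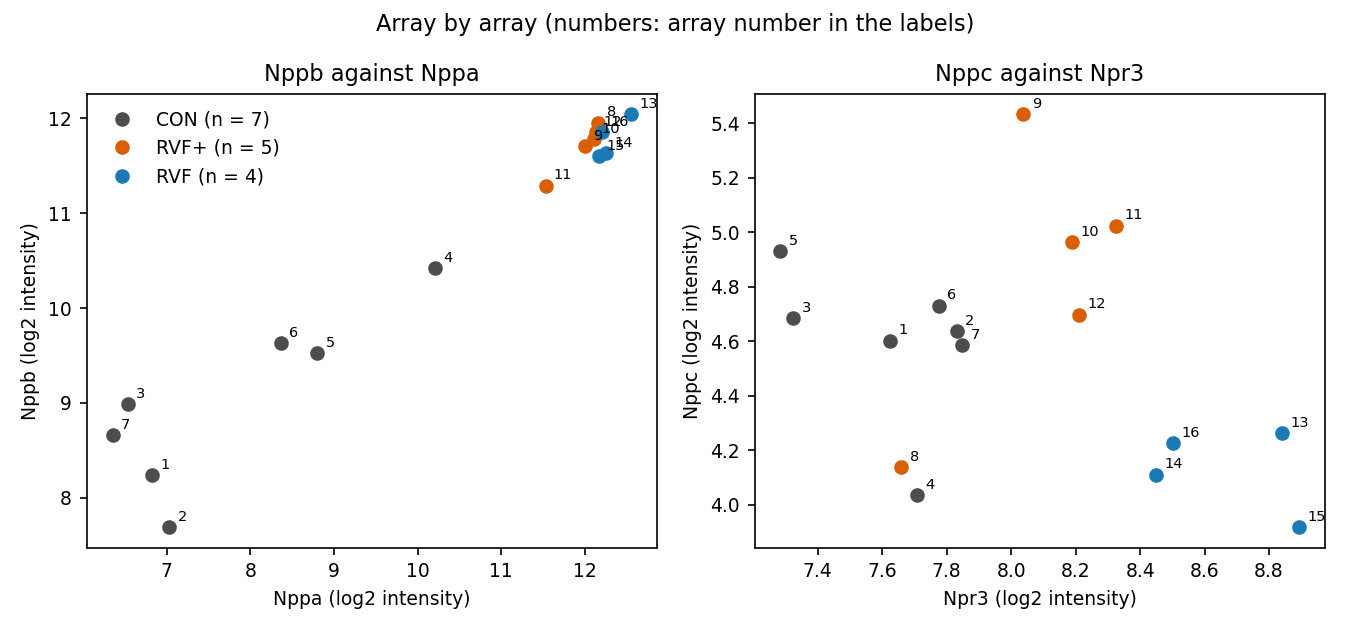
Nppb against Nppa (left) and Nppc against Npr3 (right), both axes in log2 intensity; each point is 1 array, coloured by group and marked with its number. On the left the 9 RVF+ and RVF arrays crowd at 11.29 or above in Nppb while CON arrays are strung out, and on the right the 4 RVF arrays sit apart with high Npr3 and low Nppc.

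Most atrial myocyte markers did not rise beside Nppa. Of 12 listed markers 10 were measured, and 2 rose (Gja5 and Nr2f2) and 3 fell in RVF+ against CON, while 0 rose and 5 fell in RVF. Their summed intensity ran from 2896 to 4599 across CON arrays. It was 1386 to 2351 for RVF+ and 1875 to 2000 for RVF, so both groups lay below all CON arrays. A linear sum gives most weight to bright genes such as Kcnj3, with a median log2 level of 10.37 in CON, 8.99 in RVF+ and 9.29 in RVF. Kcnj3 and Stard10 lay below all CON arrays in both groups, while the listed markers Myl7 and Sln overlapped CON in both. Neither Myl7 nor Sln passed in RVF+, and both fell in RVF. Within CON the log2 level of Myl7, the atrial myosin light chain, ran from 6.22 to 10.79 and was lowest in CON 4, the array with the highest Nppa. Nppa against the log2 sum of atrial markers had r = -0.17 in the 7 CON arrays (exact permutation p = 0.714, adjusted 0.833), rho = -0.29 (exact permutation p = 0.556, adjusted 0.778) and r = -0.72 without CON 4 and CON 5. For Myl7 itself r was -0.30 (exact permutation p = 0.524, adjusted 0.833), rho -0.14 (exact permutation p = 0.783, adjusted 0.783) and r -0.69 without those arrays. The defining marker Bmp10 stayed between 3.23 and 3.69 in all arrays, under the lower quartile of all genes at 3.75. The ventricular light chain Myl3 was between 12.25 and 12.87 and the cardiac troponin Tnni3 between 10.92 and 12.14, both lowest in RVF+. In bulk tissue, fewer cells of a type and less RNA per cell cannot be told apart.

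Nppc, the third peptide gene, lay below the median level of all genes (5.57), where RMA compresses differences. Its log2 level ran from 4.04 to 4.93 in CON with a median of 4.64. It was 4.14, 5.43, 4.97, 5.02 and 4.70 in RVF+ and 4.26, 4.11, 3.92 and 4.23 in RVF. RVF levels were thus all low, while the RVF+ arrays other than RVF+ 8 were above them, and both groups overlapped CON. Against CON the difference was 0.25 ± 0.18 in RVF+ (adjusted p = 0.318) and -0.47 ± 0.19 in RVF (adjusted p = 0.0954), neither of which passed. Without RVF+ 8 both passed, at 0.43 (adjusted p = 0.0380) and -0.47 (adjusted p = 0.0232). The second difference is the same value with a smaller shared estimate of the spread. The value in RVF+ was 0.11 without RVF+ 9 and 0.16 without CON 4. With all arrays, exact two-sided permutation tests against CON gave unadjusted p-values of 0.275 for RVF+ and 0.0212 for RVF.

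Npr3, the clearance receptor, rose in both groups, and in RVF it had the largest difference from CON of the 3 receptor genes. Its log2 level ran from 7.28 to 7.85 in CON with a median of 7.71. It was 7.66, 8.04, 8.19, 8.33 and 8.21 in RVF+ and 8.84, 8.45, 8.89 and 8.50 in RVF. All RVF arrays were above all others, and RVF+ 8 alone among the RVF+ arrays fell within the range of CON. Npr3 was 2.06-fold higher in RVF (1.04 ± 0.14, adjusted p = 6.08e-05) and 1.37-fold in RVF+ (0.46 ± 0.13, adjusted p = 0.0144). The call in RVF+ ended with median centring (0.36, adjusted p = 0.0618), and the value was 0.56 without RVF+ 8. Markers of endothelium and endocardium, the latter a site of Npr3 in the heart, were measured for 9 of 12 genes. In RVF 0 of 9 passed limma (0 also at an unadjusted p under 0.05), with 2190 to 2872 for their summed intensity against 2274 to 2505 in CON. In RVF+ 2 of 9 rose (Vwf and Plvap), with a sum of 2196 to 3631, lowest in RVF+ 8. Their part in the Npr3 difference was not tested.

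Npr1, the receptor for the atrial and brain peptides, did not pass in either group. Its log2 level ran from 5.91 to 6.33 in CON with a median of 6.05. It was 5.75, 6.59, 7.06, 6.22 and 6.00 in RVF+ and 6.35, 6.28, 6.06 and 5.92 in RVF, so that the groups overlapped and RVF+ held both the lowest and the highest array. The differences were 0.23 ± 0.17 (95% interval -0.11 to 0.58, adjusted p = 0.323) and 0.06 ± 0.18 (-0.31 to 0.44, adjusted p = 0.856). The value in RVF+ was 0.05 without RVF+ 10 and 0.38 without RVF+ 8. RVF+ 10, with the highest Npr1, also had the highest sum of endothelial markers, and RVF+ 8 had the lowest of both among RVF+ arrays. The part of endothelial markers in Npr1 was not tested.

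Npr2, the receptor for the C-type peptide, was lower than in CON in every RVF+ and RVF array. Its log2 level in CON ran from 7.59 to 7.88 with a median of 7.69. It was 6.74, 7.38, 7.28, 7.56 and 7.42 in RVF+ and 7.44, 7.31, 7.45 and 7.43 in RVF. The array RVF+ 8 was far below the rest. The fall was 1.33-fold in RVF+ (-0.41 ± 0.11, adjusted p = 0.00802). With median centring it was -0.51 (adjusted p = 0.00610), and it held without RVF+ 8 at -0.28 (adjusted p = 0.00843). In RVF the value was -0.28 ± 0.12, which did not pass (adjusted p = 0.104) although the groups did not overlap. In that comparison 9.00% of all genes were lower without overlap, and in RVF+ 7.63%. With RVF+ 8 left out the RVF value of -0.28 passed (adjusted p = 0.00787). The exact two-sided permutation test of RVF against CON gave an unadjusted p of 0.00303, the smallest its 330 splits allow.

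Corin, a membrane protease of heart muscle cells, fell in both groups. Its log2 level in CON ran from 9.80 to 10.15 with a median of 9.96. It was 8.62, 9.06, 9.34, 9.73 and 9.04 in RVF+ and 9.32, 9.41, 9.28 and 9.08 in RVF. All 9 arrays were below all CON arrays, with RVF+ 8 the lowest and RVF+ 11, the array with the lowest Nppa of the 9, the closest to CON. Corin was 1.74-fold lower in RVF+ (-0.80 ± 0.14, adjusted p = 0.000345) and 1.61-fold lower in RVF (-0.69 ± 0.15, adjusted p = 0.00338). Without RVF+ 8 the value in RVF+ was -0.66 (adjusted p = 0.000386). The summed intensity of 8 ventricular myocyte markers was 19690 to 20320 in CON and 20160 to 21520 in RVF. In RVF+ it was 14670 in RVF+ 8, the lowest, and up to 21250. Of these 8 markers 1 rose and 3 fell in RVF+ (list median -0.33), and 1 rose and 1 fell in RVF (median -0.07). The riser in both was Myh7, the slow myosin heavy chain, and those that fell were Hey2 in both groups and Irx4 and Tnni3 in RVF+. Their part in the Corin difference was not tested.

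**Figure D3:**
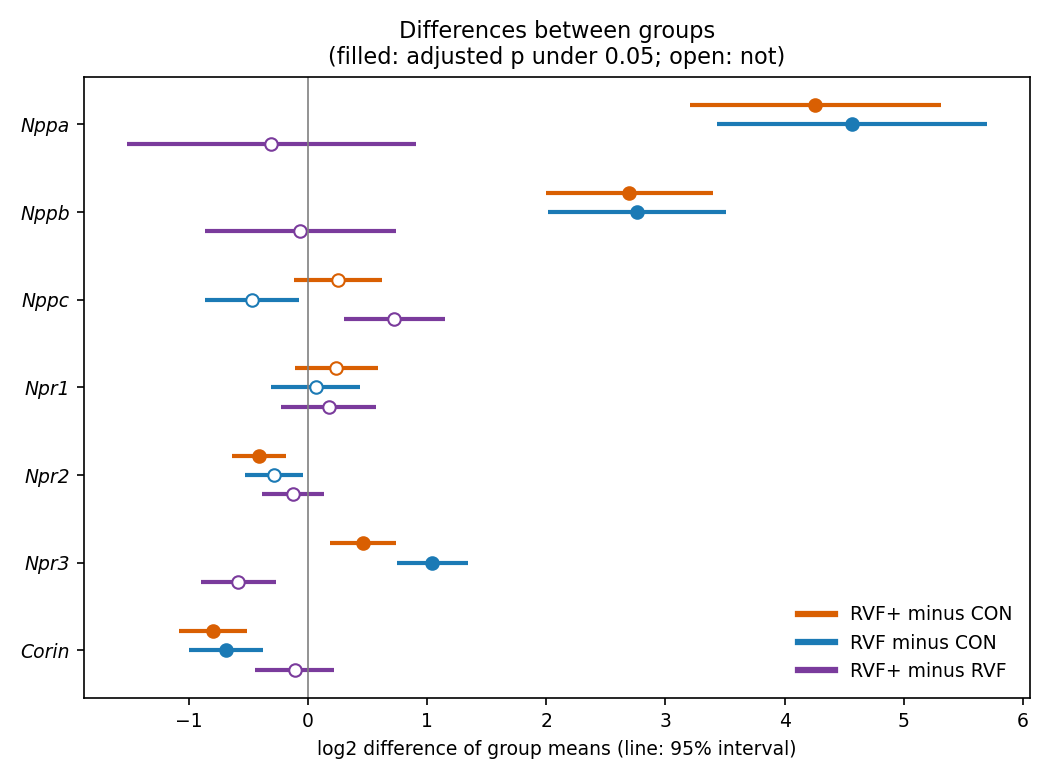
Difference between group means for each member on the log2 scale (horizontal axis) in the 3 comparisons, shown by colour, with a line for the 95% interval; filled points passed at an adjusted p under 0.05. Nppa and Nppb stand far to the right in both comparisons with CON, and no point of RVF+ minus RVF is filled.

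None of the 7 members passed in RVF+ against RVF, where 0% of all genes passed in limma and 1242 of 17245, or 7.20%, had an unadjusted p under 0.05. The largest values were for Nppc and Npr3. Npr3 was lower in RVF+ by -0.59 ± 0.15 (95% interval -0.90 to -0.27, adjusted p = 0.403), with all 5 RVF+ arrays below all 4 RVF arrays. Nppc was higher in RVF+ by 0.72 ± 0.20 (0.30 to 1.15, adjusted p = 0.403), with 4 of 5 RVF+ arrays above all RVF arrays. Exact two-sided permutation tests over 126 splits gave unadjusted p-values of 0.00794 for Npr3, the smallest possible, and 0.0317 for Nppc. Nppa had -0.31 ± 0.57 (-1.52 to 0.90, adjusted p = 0.948), and here too all RVF+ arrays were below all RVF arrays, by as little as 12.163 against 12.167. Without RVF+ 11, the lowest RVF+ array, the value was -0.19. The SE of Nppa comes from a spread shared with CON, whose arrays varied most, and the exact permutation test on these 9 arrays gave an unadjusted p of 0.0317. Of all genes 1.74% did not overlap between RVF+ and RVF, 1.15% being lower and 0.586% higher in RVF+. For Nppb (-0.07, interval -0.87 to 0.73), Npr1 (0.17, -0.23 to 0.57), Npr2 (-0.13, -0.39 to 0.13) and Corin (-0.11, -0.44 to 0.22) the groups overlapped.

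Genes that process or break down peptides were followed as a list of 14, of which 13 were measured. In RVF+ 2 rose and 2 fell (list median -0.02), and in RVF 1 rose and 2 fell (median -0.01). Over all genes 27.7% passed in RVF+ and 17.1% in RVF, the shares to set beside every list counted here with all arrays. Mme encodes neprilysin, the enzyme that degrades natriuretic peptides. Its log2 level was 4.61 to 5.39 across CON, 3.47 to 4.05 across RVF+ and 3.31 to 3.88 across RVF. Both groups lay below all CON arrays, at levels about the lower quartile of all genes. It fell by 1.20 ± 0.15 in RVF+ (adjusted p = 2.04e-05) and by 1.35 ± 0.16 in RVF (adjusted p = 2.04e-05). Dpp4, a dipeptidyl peptidase of the cell surface that can trim brain natriuretic peptide, fell by 1.13 ± 0.14 in RVF+ and by 0.51 ± 0.15 in RVF (adjusted p = 0.0271). Its call in RVF ended without CON 1 (adjusted p = 0.0513), RVF 14 (0.0565) or RVF 15 (0.102). Pam, an enzyme that amidates peptides and is abundant in secretory granules of atrial myocytes, rose by 0.37 ± 0.09 in RVF+ (adjusted p = 0.00549, but 0.0659 with median centring) and by 0.48 ± 0.10 in RVF (adjusted p = 0.00230). Ece1, the endothelin-converting enzyme, rose in RVF+ (0.60 ± 0.13, adjusted p = 0.00230) and had 0.14 ± 0.14 in RVF (adjusted p = 0.547). Furin, the protease that cuts the Nppb precursor, did not pass in RVF+ (-0.04 ± 0.10, adjusted p = 0.800) or RVF (-0.13 ± 0.10, adjusted p = 0.445).

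Cyclic GMP made by the receptors acts on kinases and channels and is degraded by phosphodiesterases. Of 23 listed effectors and phosphodiesterases 22 were measured. In RVF+ 6 rose and 5 fell (median 0.08), and in RVF 4 rose and 2 fell (median 0.06). Pde3a, a phosphodiesterase that cyclic GMP inhibits, fell by 0.92 ± 0.12 and 0.74 ± 0.13. Its relative Pde3b rose by 0.82 ± 0.15 (adjusted p = 0.000667) in RVF+ and by 0.56 ± 0.16 (adjusted p = 0.0248) in RVF, and the latter call ended without RVF 13, 14 or 16 (adjusted p = 0.0583, 0.0536 and 0.0926). Pde1c fell by 0.68 ± 0.09 and 0.64 ± 0.10, and Pde10a rose by 0.55 ± 0.08 and 0.45 ± 0.09. In every group the medians of Pde1c and Pde10a lay below the median level of all genes (5.57), where RMA compresses differences. Among 13 other guanylyl cyclase and nitric oxide synthase genes, limma called 0 in either comparison, and 2 in RVF+ and 1 in RVF had an unadjusted p under 0.05. The 4 of them with the smallest p were Gucy1a1, a subunit of the cyclase that nitric oxide activates (-0.31 in RVF+, adjusted p = 0.0735), its relative Gucy1a2 (-0.23 in RVF+, adjusted p = 0.107), the intestinal receptor gene Gucy2c (-0.22 in RVF, adjusted p = 0.137) and the endothelial nitric oxide synthase Nos3 (0.24 in RVF+, adjusted p = 0.138). Gucy2c was a dim gene, below the lower quartile of all genes (3.75) in every array. Gucy1a1 passed with median centring (adjusted p = 0.0407) and without RVF+ 11 (0.0325), and Gucy1a2 with median centring (0.0488) and without RVF+ 12 (0.0311). Nos3 passed with array quality weights (0.0242) and without RVF+ 8 (0.0337).

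Of 34 factors known to act on Nppa or Nppb transcription 31 were measured. In RVF+ 2 rose and 11 fell (median -0.19), and in RVF 2 rose and 7 fell (median -0.04). The 2 that rose were Rcan1 and Tead4 in both. Rcan1, a target and regulator of calcineurin, was 8.91 to 9.57 across CON, 9.86 to 10.56 across RVF+ and 10.20 to 10.38 across RVF, above CON in all 9 arrays. It rose by 0.90 ± 0.13 and 1.12 ± 0.13 (adjusted p = 5.29e-05 and 1.98e-05). Tead4, a factor that binds the CATTCC core marked above, rose by 0.74 ± 0.11 and 0.46 ± 0.11 (adjusted p = 6.72e-05 and 0.00863). The homeobox factor Nkx2-5 fell by 0.54 ± 0.08 in RVF+ (adjusted p = 7.95e-05) and had -0.14 ± 0.08 in RVF (adjusted p = 0.290). In RVF+ minus RVF Nkx2-5 had -0.40 ± 0.09 and did not pass (adjusted p = 0.403). Hdac5, a repressor of the stress programme of heart muscle, fell by 0.48 ± 0.08 and 0.34 ± 0.08 (adjusted p = 0.000170 and 0.00790). Gata4, the classic activator of both peptide genes, did not pass in RVF+ (-0.21 ± 0.09, adjusted p = 0.104) or in RVF (0.18 ± 0.10, adjusted p = 0.230). The factors that fell in both groups were Gata6, Hdac5, Hey2, Klf15, Nfatc3 and Tbx5. Without RVF 13, 2 factors rose and 2 fell in RVF.

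**Figure D4:**
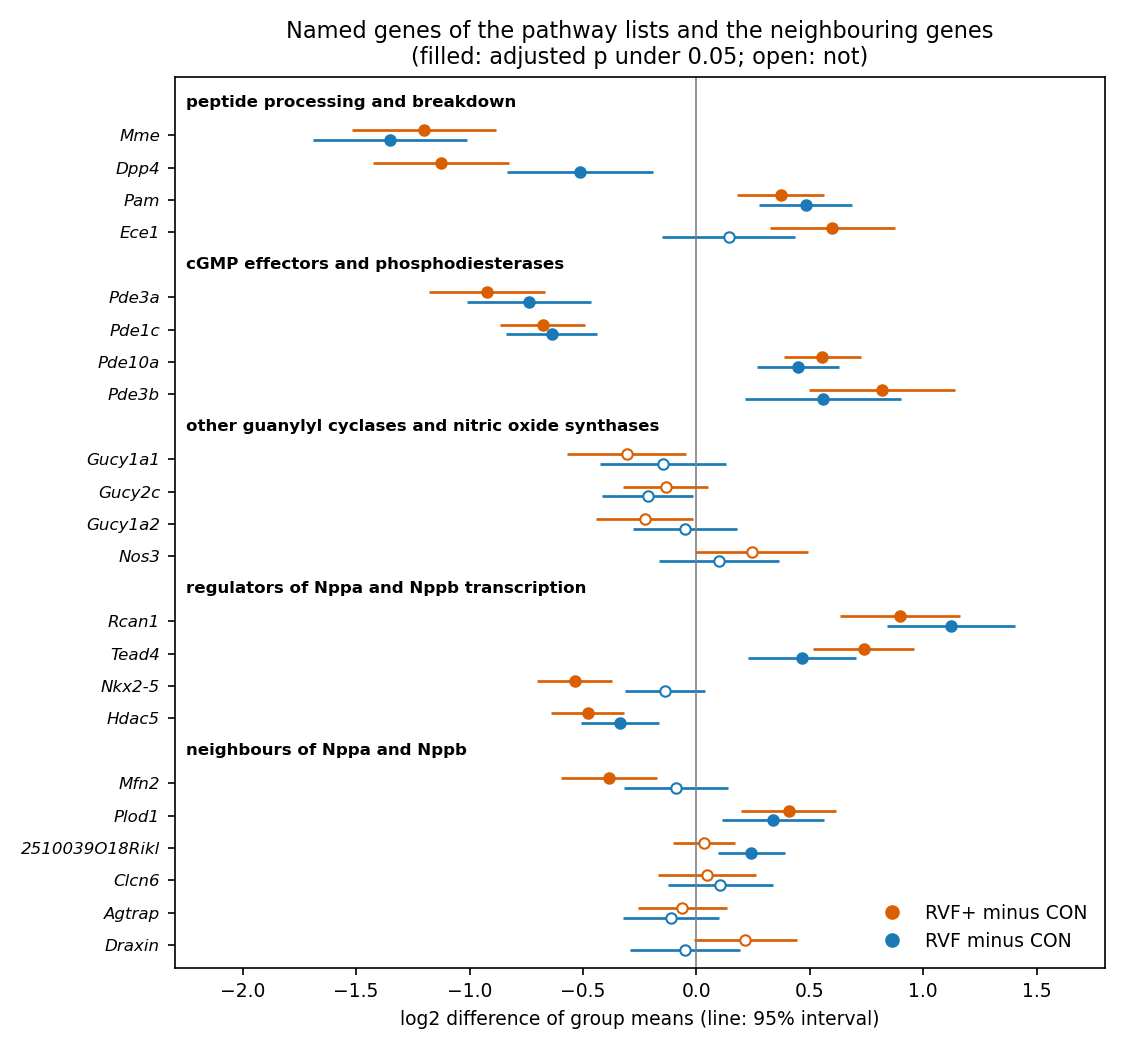
Difference from CON on the log2 scale (horizontal axis) for the named genes of each pathway list and for the genes next to Nppa and Nppb, with RVF+ and RVF in separate colours, lines for 95% intervals and filled points for an adjusted p under 0.05. Mme lies farthest to the left and Rcan1 farthest to the right among the filled points of RVF, and the neighbours Clcn6 and Agtrap are open in both.

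The genes beside Nppa and Nppb had far smaller differences from CON. By the order in RefSeq assembly GRCr8, the 3 nearest measured genes on the Nppb side are 2510039O18Rikl, Plod1 and Mfn2, and on the Nppa side Clcn6, Agtrap and Draxin. Clcn6, a chloride transporter gene next to Nppa, had 0.05 ± 0.10 in RVF+ (95% interval -0.16 to 0.26, adjusted p = 0.780) and 0.11 ± 0.11 in RVF (-0.13 to 0.34, adjusted p = 0.569). Its value in RVF+ was -0.01 after quantile normalization and -0.05 with median centring. Plod1, a lysyl hydroxylase that modifies collagen, rose by 0.41 ± 0.10 in RVF+ (adjusted p = 0.00524) and by 0.34 ± 0.11 in RVF (adjusted p = 0.0371). The latter call ended with median centring (adjusted p = 0.0851) and without CON 2, 3, 4 or 6 or RVF 13 or 15, of which RVF 13 gave 0.22 (adjusted p = 0.177). Mfn2, a mitochondrial fusion gene, fell by 0.38 ± 0.10 in RVF+ (adjusted p = 0.00828) and had -0.09 ± 0.11 in RVF. The value of 2510039O18Rikl in RVF was 0.24 ± 0.07 (adjusted p = 0.0223), a call that ended with median centring and without RVF 13, 14 or 15. Agtrap, an angiotensin receptor partner, had -0.06 in RVF+ (adjusted p = 0.673) and -0.11 in RVF (adjusted p = 0.498), and Draxin, an axon guidance gene, 0.22 (adjusted p = 0.151) and -0.05 (adjusted p = 0.820). Draxin was dim, with its median in every group below the lower quartile of all genes (3.75). The value farthest from 0 among the 6 neighbours was thus 0.41, for Plod1 in RVF+, beside 2.70 for Nppb and 4.26 for Nppa. In RVF+ Nppa ranked 1 and Nppb 10 of all genes by difference, so almost any gene would have a smaller rise. Of the 6 neighbours 1 rose and 1 fell in RVF+ and 2 rose in RVF, where 27.7% and 17.1% of all genes passed.

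To find genes whose level varied like that of a member, deviations from the group means were correlated over all 16 arrays against 8623 genes at or above the median level. This is a description and carries no test. Nppb was the second closest gene to Nppa and Nppa the closest to Nppb (r = 0.83). The others closest to Nppa were Cops2 (r = 0.84), Pibf1, Gon7 and Rap1a (0.82, 0.82 and 0.81). Those closest to Nppb were Btf3-ps11, Cops2, Ankrd1, a stretch-responsive ankyrin repeat gene, and Tmem165 (0.78, 0.78, 0.75 and 0.75). Ankrd1 had 0.51 in RVF+ and 0.62 in RVF against CON. For Npr3 the closest were Clk1, Drosha, Clstn2, Kdm3a and Babam2 (0.82 to 0.86, and 0.73 to 0.80 without RVF+ 8). For Corin they were Cds2, Kat6b, the adrenergic receptor gene Adra1a, Bcas3 and Zrsr2-ps1 (0.91 to 0.94, and 0.83 to 0.89 without RVF+ 8). Within the 7 CON arrays alone, Zrsr2-ps1 had only r = 0.38 with Corin, and the others named had 0.88 to 0.91. The deviations of Nppa and Nppb come mainly from the CON arrays. Corin and Npr2 had r = 0.77 with each other, and 0.54 without RVF+ 8.

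The array RVF+ 8 stood apart from the rest over all genes. Measured as the root mean square of log2 differences to the CON average, its distance was 0.71. The 8 remaining RVF+ and RVF arrays had 0.33 to 0.45, and a CON array set against its fellows had 0.18 to 0.25. It had the lowest level among RVF+ arrays of Nppc, Npr1, Npr2, Npr3 and Corin and the highest of Nppa and Nppb. The summed intensity of 8 macrophage markers was 4428 in RVF+ 8, the highest of all arrays, against 1802 or more in RVF+, 1492 to 2171 across RVF and 918 to 1350 across CON. All 8 of these markers rose in RVF+ and 6 in RVF, and of 10 fibroblast markers 7 rose in RVF+ and 6 in RVF. Of 5 red cell markers 3 rose in RVF+ (Ahsp, Alas2 and Hbb) and 0 passed limma in RVF (0 also at an unadjusted p under 0.05), and their summed intensity was 1917 to 2453 across CON, 2219 to 6610 across RVF+ and 1874 to 4367 across RVF. Their part in the members' values was not tested. With the array RVF+ 8 left out, 6 members passed in RVF+ against CON, 4 higher and 2 lower, and 6 in RVF against CON, 3 higher and 3 lower. Nppc joined in both, and Npr2 in RVF. Over all genes 24.9% passed in RVF+ and 24.6% in RVF in that fit, against 27.7% and 17.1% with all arrays.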

How the data were processed

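Right ventricular wall RNA of 16 samples was hybridised to 16 Affymetrix arrays from 500 ng of total RNA, per the labels' protocols. The deposited values are intensity per probe set on a linear scale from 2.202 to 10294, and the submitters' processing notes name RMA, a method that corrects background, equalises the arrays' distributions and summarises probes. Software version and genome build: not given in the sources used here. RMA compresses differences of dim probe sets, and precision is limited by how many arrays there are.

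Values were converted to log2. Of 29214 probe sets 18644 had exactly 1 symbol in the platform annotation, 962 had several and 9608 were not listed by it; 18460 matched the RefSeq table of GRCr8. Per gene the probe set with the highest mean was kept (17245 genes), and dim genes stayed in. Group means were fitted to all 16 arrays with limma 3.58.1 (lmFit and eBayes) in R 4.3.3, with 13 residual and 4.45 prior degrees of freedom. P-values are two-sided and adjusted over all genes, with a threshold of 0.05. No batch, date or pairing is in the labels. On simulated data with 17245 genes the fit recovered 94.2% of 2-fold changes in RVF+ minus CON, 92.5% in RVF minus CON and 91.7% in RVF+ minus RVF, with 8 false calls each. Of 1.5-fold changes it recovered 80%, 78.4% and 62.9%, and smaller ones were not simulated. The simulated noise was independent between genes and had the same spread in all groups. It held no array set apart like RVF+ 8 and no group with a wider spread, so these shares need not hold for the real arrays.

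Members and lists were chosen with earlier results of these data known. The genes named are all 7 members, the 4 genes of each pathway list with the smallest p against CON, the 3 nearest measured genes on each side of Nppa and Nppb, and the 5 genes most alike in their deviations to Nppa, Nppb, Npr3 and Corin. Furin, Gata4, the factors that fell in both groups and the marker genes given with values were chosen after their values were seen. Marker sums add linear intensity over a list's measured genes. Alternatives were quantile normalization, median centring, filters on dim genes, averaging the probe sets of a gene, every probe set tested, fits on the compared groups only, trend, robust moderation, array quality weights, an offset of 16 on the linear scale, exact permutation tests and leaving out each array.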

Additional observations from a re-analysis of the deposited data

Results flagged for a closer look

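Each member was examined in each group for a single array far from the others, 21 cases in all, of which chance flags about 1 in 20. Nppa was 11.53 (log2) in RVF+ 11, below the other RVF+ arrays at 12.01 to 12.16. Nppc was 4.04 in CON 4, below the other CON arrays at 4.58 to 4.93, and CON 4 is also the CON array with the highest Nppa and Nppb. Without CON 4 the value of Nppc in RVF against CON was -0.57 and passed (adjusted p = 0.0354).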

How the results depend on the processing

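Nppa, Nppb, Npr3 and Corin kept their direction and their calls against CON under every alternative run, except for Npr3 in RVF+ with median centring. Over these alternatives the Nppa difference ran from 4.03 to 4.67 in RVF+ and from 4.34 to 4.98 in RVF. Of 195 values of members under alternatives in each comparison, 192 kept direction and call in RVF+ against CON, 184 in RVF against CON and 187 in RVF+ against RVF. For the exact permutation tests among these, a call meant an unadjusted p under 0.05, a looser rule than the adjusted p used elsewhere. Without one array at a time, 5 to 6 members passed in RVF+, 4 to 6 in RVF and 0 in RVF+ against RVF, and 4288 to 4993, 2063 to 4247 and 0 to 3 genes passed in all. The 3 genes were called without RVF+ 12. In RVF against CON 4688 genes passed with array quality weights and 4466 with a fit on the 2 groups only, against 2957, and the calls of Nppc (adjusted p = 0.00572 and 0.0173) and Npr2 (0.00816 and 0.00778) were added there. In RVF+ Nppc passed with array quality weights (0.41, adjusted p = 0.0480). The cause was not tested.

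Signs turned only for values that did not pass. With median centring these were Npr1 in RVF (-0.021) and 2510039O18Rikl (-0.060) and Clcn6 (-0.047) in RVF+, where Clcn6 was -0.0074 after quantile normalization and -0.013 with array quality weights. With those weights Agtrap was -0.038 in RVF+ minus RVF. Leaving out one array at a time, Draxin ran from -0.10 to 0.020 and Npr1 from -0.0039 to 0.14 in RVF against CON. In RVF+ minus RVF, Nppb ran from -0.13 to 0.041, Npr1 from -0.012 to 0.31, Npr2 from -0.20 to 0.0038, Corin from -0.25 to 0.023, Agtrap from -0.051 to 0.091, Clcn6 from -0.097 to 0.025 and Pde1c from -0.095 to 0.028. No paired analysis was possible because the replicate numbers in the labels run from 1 to 16 and no groups share one.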
